A study of Rattus norvegicus with 19 samples.

Results

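The baseline of rat liver at postnatal day 4 is described here from the 5 arrays of the vehicle group, out of 19 arrays in the series. The vehicle group was chosen by its labels alone, and each value below is an absolute level on the log2 scale of the deposited signals. Wistar Han rats (Crl:WI(Han)) served in every group. Dams were obtained at gestation day 2, at 11 to 12 weeks of age, and were gavaged from gestation day 6 to postnatal day 4. The vehicle group (dose 0) received corn oil alone at 5 mL/kg per day, and the other groups received DE-71, a commercial pentabromodiphenyl ether mixture used as a flame retardant, in the same oil. The dose groups were 0.1 mg/kg per day with 5 arrays, 15 mg/kg with 4 arrays and 50 mg/kg with 5 arrays. RNA came from the left lateral lobe, and 100 ng was amplified for an array that reads the 3′ end of transcripts. The labels do not say whether each array is a separate pup or litter, or whether the liver is that of pups or dams, so every SD and p-value covers the spread between these samples, which may be technical.

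Around birth the rat liver is both a gland and a blood-forming organ. Hepatocytes of this age still make fetal products such as alpha-fetoprotein while they switch on the enzymes of glucose production, urea synthesis and fat burning that milk feeding calls for. Islands of red cell precursors, granulocyte precursors and megakaryocytes lie between the hepatocyte plates and leave for the bone marrow during the first weeks of life. In a sample of whole tissue such as these, fewer cells of a type and less RNA per cell cannot be told apart.

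The 5 vehicle arrays had medians between 6.07 and 6.16 and single values between 2.40 and 15.05. Of 31042 probe sets that were not controls, 14217 genes were taken, each by its brightest probe set over the series. RMA values carry no detection call, so a low-signal bound was set on each array at the 95th percentile of 40 olfactory, vomeronasal and taste receptor genes, which gave bounds between 5.14 and 5.33. Over all genes, 10422 of 14217 (73.3%) lay above the bound on all 5 vehicle arrays and 2654 (18.7%) on none, and the median SD of a gene was 0.168. Each count of list members above the bound stands beside this 73.3%, and a share near it does not set a list apart. Brightness differs between probe sets of the same gene: over 4525 genes with several, the brightest and dimmest differed by a median of 2.10 log2 units, and 52.0% differed by more than 2. Ranks below are therefore ranks of signal, not of RNA.

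Vehicle replicate 2 and replicate 2 of the 0.1 mg/kg group were nearly the same: the SD of their differences over probe sets was 0.128, against 0.197 to 0.619 in the other 170 pairs of arrays. Between them 90 probe sets differed by more than 0.5 log2 units, against 609 to 7097 in the other pairs. The labels give them different doses and do not account for this, so the arrays cannot be taken as independent samples. The fits across doses nevertheless count both, and their counts without them stand beside those results. The labels give the sex as female. The Y-linked genes Uty (9.54, 9.46, 9.79, 9.85 and 9.73 on vehicle replicates 1 to 5) and Eif2s3y (9.66, 9.99, 9.79, 9.78 and 9.78) were high on each vehicle array. Xist, the RNA of the inactive X chromosome, stayed below the bound at 4.17, 3.88, 4.16, 4.14 and 4.04, which goes against the label. Dams carry no Y chromosome, so these values are not those of dam liver alone.

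Promoter stretches of 4 genes are shown as examples of the gene groups described below: Alb and Afp, the adult and the fetal albumin of one locus, Alas2, the first enzyme of heme synthesis in red cells, and Acta1, skeletal muscle actin, the gene that differed most between the vehicle arrays. Each is the 150 bases just before the gene's start in RefSeq, on build GRCr8, read along the gene. Capitals mark the 6-base matches to GTTAAT, a half-site of the HNF1 factors of liver, to AGATAA, the motif of GATA factors, and to TATAAA, the TATA box.
Alb: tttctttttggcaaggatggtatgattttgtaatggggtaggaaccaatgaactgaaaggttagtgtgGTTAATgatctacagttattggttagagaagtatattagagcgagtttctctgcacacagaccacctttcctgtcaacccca
Afp: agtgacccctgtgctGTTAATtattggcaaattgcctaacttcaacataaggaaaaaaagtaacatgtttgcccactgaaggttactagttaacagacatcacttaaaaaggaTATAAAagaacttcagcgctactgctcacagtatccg
Alas2: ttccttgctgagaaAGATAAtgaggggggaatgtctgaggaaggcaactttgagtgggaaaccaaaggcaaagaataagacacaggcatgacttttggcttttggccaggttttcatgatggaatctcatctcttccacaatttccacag
Acta1: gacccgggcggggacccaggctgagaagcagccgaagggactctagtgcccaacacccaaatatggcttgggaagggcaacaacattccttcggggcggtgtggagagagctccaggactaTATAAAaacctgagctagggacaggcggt
These lie at chr14:17906980-17907129 on the minus strand for Alb, chr14:17875646-17875795 on the minus strand for Afp, chrX:22895300-22895449 on the plus strand for Alas2 and chr19:68784195-68784344 on the minus strand for Acta1. GTTAAT began at position -82 from the start of Alb and at -135 from that of Afp, where TATAAA also began at -37. AGATAA began at -136 of Alas2 and TATAAA at -29 of Acta1. Searched on both strands of the same windows, GTTAAT stood in 28.9% of 38 promoters of plasma protein genes and in 18.1% of 83 promoters of the 100 brightest genes, beside 2.39% of 11733 measured genes and 3.70% of all 27457 promoters. AGATAA stood in 20% of 30 erythroid promoters (3.60% of measured genes), and TATAAA in 32.6% of 43 skeletal muscle promoters (5.27% of measured genes). The motifs do not overlap in these letters, and a match is a description of the sequence and not a bound site.

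Secreted plasma proteins headed the signal of the neonatal liver. Alb, the main protein of plasma, was first at 15.04, 15.05, 15.03, 15.03 and 15.03 on vehicle replicates 1 to 5 (15.03 ± 0.00944, SD, n = 5). The protease inhibitor Serpina1 followed at 14.66 ± 0.0309. Afp, which carries fatty acids and other ligands in fetal plasma, came next at 14.66, 14.62, 14.61, 14.62 and 14.56 (14.62 ± 0.0354). Alb and Afp thus stood among the first genes on each array, with a spread far below that of the median gene. Values this close to the top of the scale are compressed on these arrays.

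Of the 25 genes of highest signal, 18 were on the plasma protein list. They included Ahsg (14.60), which binds calcium phosphate, the hemoglobin binder Hp (14.58), the complement protein C3 (14.53) and the thyroxine carrier Ttr (14.53). The apolipoproteins Apoh (14.46), Apoe (14.44), Apoa1 (14.44), Apob (14.42), Apoc3 (14.35) and Apoc1 (14.33) belonged to them. So did the fibrinogen chains Fgg (14.45), Fga (14.34) and Fgb (14.30), the vitamin D carrier Gc (14.43), and Itih3 (14.37) and Ambp (14.35) of the inter-alpha inhibitor family. Afp, a protein of fetal plasma placed on the fetal list, was among the other members of the 25. So were H19 (14.50), an imprinted RNA that is not translated, and Hbb (14.47), a beta-globin of red cells. The rest were the mitochondrial genes COX2 (14.52) and COX1 (14.30), the ribosomal gene Rps29 (14.24) and Adh1c (14.23), the alcohol dehydrogenase of liver.

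**Figure D1:**
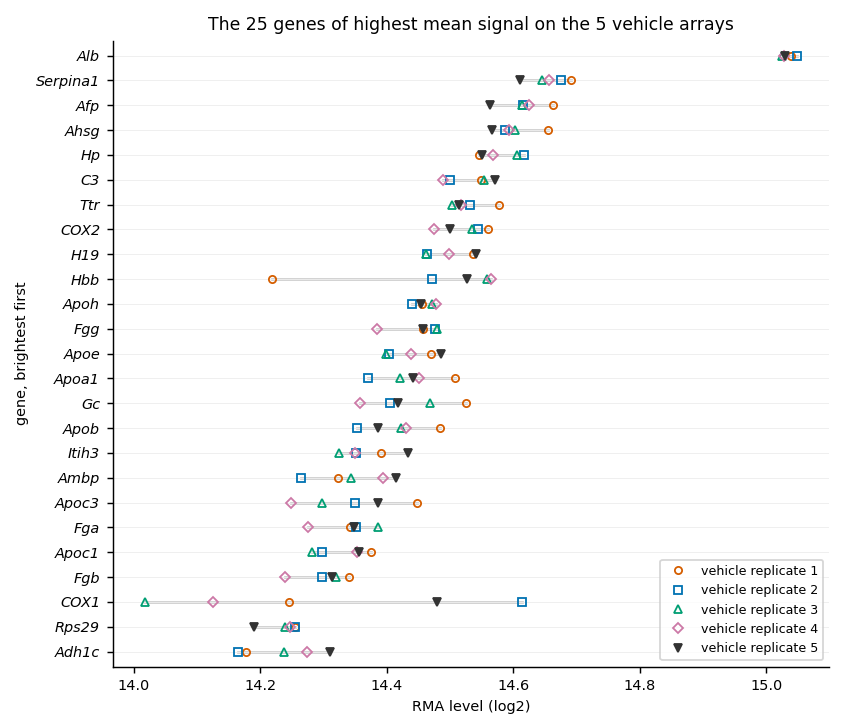
Level on each of the 5 vehicle arrays (RMA, log2) of the 25 genes of highest mean signal, brightest first; each symbol is an array and the grey line spans lowest to highest. The points of most genes lie close together, while those of Hbb and COX1 spread, with Hbb lowest on vehicle replicate 1 at 14.22.

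In the first 100 genes, 35 were on the plasma protein list, of 48 measured. Ribosomal proteins made up 16, 2 were encoded by mitochondria and 6 were on the adult hepatocyte list. The median SD among the 100 was 0.0816, the highest was 0.538 (Defa5, a neutrophil defensin), and the 100th gene had a mean of 13.38. The top 1% of genes held 142 genes, and 113 of them were in it on each of the 5 arrays. In groups that the ranking did not use, the first 100 genes shared 95 with the vehicle set at 0.1 mg/kg, 93 at 15 mg/kg and 88 at 50 mg/kg. Names are missing from part of this top: among the 100 brightest probe sets 71 had 1 symbol, 20 had several and 9 had none, and only those with 1 were named. Of the 10 brightest probe sets 4 had several symbols, so the order above holds among named genes only. COX1 was one of the few bright genes that differed between arrays, at 14.25, 14.61, 14.02, 14.13 and 14.48 (SD 0.247). Hbb stood at 14.22, 14.47, 14.56, 14.56 and 14.53 (SD 0.144), with vehicle replicate 1 below the others.

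Plasma proteins as a group were nearly all present: 47 of 48 measured members were above the bound on all 5 arrays, and 44 lay in the top 10% of genes. The list's mean level was 13.34, 13.22, 13.32, 13.29 and 13.38 on vehicle replicates 1 to 5. Its dimmest members were A1bg, at 5.45, 4.30, 4.73, 4.77 and 6.45, above the bound on 2 arrays, and Apoa4, an apolipoprotein of intestine and liver, at 7.73, 7.02, 6.53, 6.11 and 6.73.

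Most genes of the fetal hepatocyte list were measured at this age. Of 19 measured members of that list, 16 were above the bound on all 5 arrays (84.2%, beside 73.3% of all genes) and 6 were in the top 10% of genes. Beside Afp and H19 stood Igf2, the fetal growth factor, at 14.16, 13.80, 13.92, 13.95 and 14.01 (13.97 ± 0.134). Other probe sets of Igf2 averaged 4.95, 4.53 and 3.89, under the bounds given above. Meg3, an RNA transcribed from the maternal copy of an imprinted locus, stood at 13.42, 12.92, 12.99, 13.17 and 13.27 (13.16 ± 0.203). These 4 genes varied little between arrays. Mest, another imprinted gene, averaged 11.14 ± 0.385, and Igf2bp3, a fetal RNA-binding protein, averaged 10.84 ± 0.231.

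Below them lay fetal genes that were measured well on each array but differed between arrays. Cdkn1c, an imprinted inhibitor of the cell cycle, was 11.61, 11.34, 8.52, 8.75 and 9.43, high on vehicle replicates 1 and 2. Plagl1, a growth regulator of the same imprinted network in mouse, followed that order at 10.82, 10.24, 8.19, 8.83 and 9.17. Gpc3, a cell surface proteoglycan of fetal liver and other fetal tissues, was 10.29, 11.02, 9.50, 9.40 and 9.15, while its other probe set averaged 5.44. Dlk1, an imprinted membrane protein of hepatoblasts and of growing muscle, was 9.62, 6.21, 6.84, 6.52 and 7.39, so replicate 1 stood more than 2 log2 units above the next array. Cd24, a surface protein of epithelial precursors, was 7.67, 10.46, 7.51, 7.38 and 7.78, and the growth factor Mdk was 8.14, 9.76, 7.32, 7.81 and 8.09, both highest on replicate 2. Markers of other tissues moved with these values: the skeletal muscle list was at 9.63 on replicate 1 and the kidney list at 8.73 on replicate 2 and their part was not tested.

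Some classical fetal regulators were at background. Lin28a, an RNA-binding protein of embryonic cells, averaged 4.41, Hmga2, a chromatin protein of embryonic growth, 3.85, and Peg10, an imprinted gene, 3.26, and none of them passed the bound on any vehicle array. Without vehicle replicate 2, the count of fetal genes above the bound was 16, and the count of adult genes was 44. A value below the bound says that the signal lay in the range of the receptor genes, not that the gene was silent.

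Most adult hepatocyte genes were measured alongside. Of 49 measured members, 43 were above the bound on all 5 arrays (87.8%, beside 73.3% of all genes) and 29 lay in the top 10% of genes. Adh1c led at 14.18, 14.17, 14.24, 14.27 and 14.31, followed by Cyp3a2, a cytochrome P450 that metabolises drugs and steroids, at 13.98 ± 0.0536, with 13.89 the lowest and 14.04 the highest array. Cyp2e1, which oxidises ethanol and ketone bodies, was 13.62, 13.35, 13.56, 13.73 and 13.86 (13.62 ± 0.191). Rgn, an enzyme of ascorbate synthesis in rats, averaged 13.56 ± 0.209, Cyp2c23, an arachidonic acid epoxygenase, 13.43 ± 0.0981, and Lect2, a secreted hepatokine, 13.42 ± 0.119. Igf1, the growth hormone-dependent growth factor of postnatal life, was already at 12.57, 12.40, 12.56, 12.41 and 12.76. Glul, which makes glutamine around the central vein, averaged 11.44 ± 0.171.

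P450 genes that mark the adult sexes, and some other genes of the adult list, lay on both sides of the bound. Cyp2c11, the major male P450 of adult rat liver, was 4.66, 4.90, 4.77, 4.92 and 4.89, and Cyp2c7, a P450 of the mature liver that metabolises retinoids, averaged 4.81 ± 0.227, both below the bound on each array. Cyp3a9 (3.71), the glutamate transporter Slc1a2 (4.16) and the urinary protein Mup5 (3.16) were below it too. Cyp2c12, the female form of adult rats, was measured at 10.76, 8.92, 10.09, 9.13 and 11.29, a spread of over 2 log2 units. Cyp2c13, another male form, lay just above the bound on 4 arrays and below it on replicate 2 (6.11, 4.64, 6.11, 6.05 and 5.72). Cyp1a2, the P450 that metabolises caffeine, stood at 7.94, 7.64, 8.66, 8.34 and 8.98.

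Other members of the adult list differed between single arrays. Car3, a carbonic anhydrase of liver and of slow muscle, was 11.97, 7.73, 7.33, 6.98 and 10.28, high on replicates 1 and 5. Those are the 2 arrays on which the skeletal muscle list was high, and its part in the Car3 values was not tested. Tdo2 and Sds, which degrade tryptophan and serine, were highest on replicate 5. Tdo2 stood at 7.67, 7.08, 8.07, 7.08 and 9.67, and Sds at 8.41, 8.15, 8.21, 7.60 and 9.70. Hamp, the iron hormone hepcidin, was 10.92, 11.00, 12.10, 12.01 and 10.90, with replicates 3 and 4 about 1 log2 unit above the rest.

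**Figure D2:**
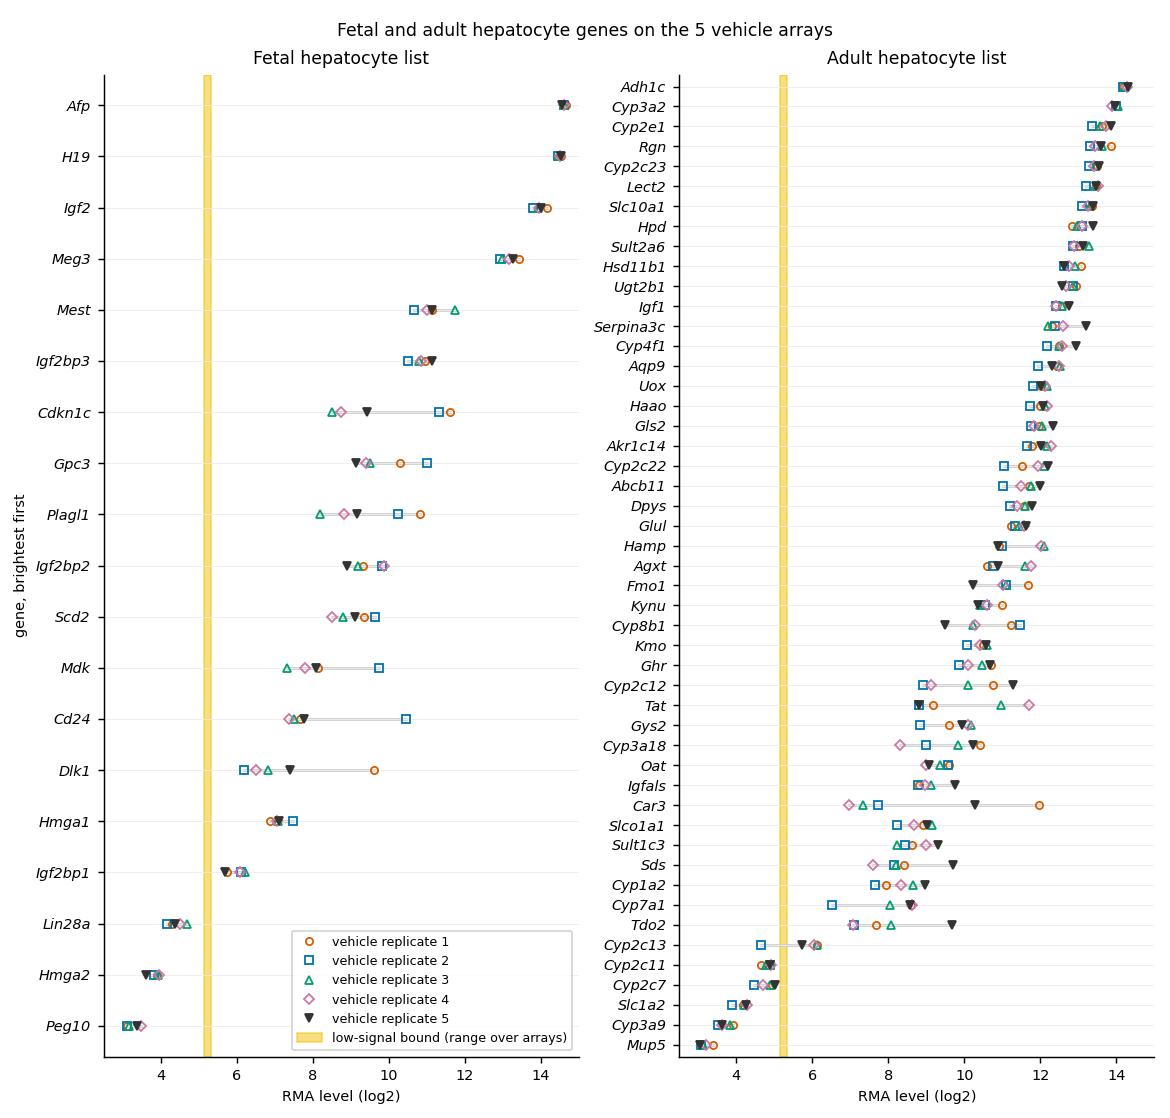
Level on each vehicle array (RMA, log2) of the 19 fetal (left) and 49 adult (right) hepatocyte genes, brightest first, with the range of the low-signal bound in yellow. Both lists reach above 14, and 3 fetal and 5 adult genes lie below the bound on each array.

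Of the measured liver transcription factors, 25 of 27 lay above the bound on all 5 arrays. Hnf4a, the master regulator of hepatocytes, was 12.37, 12.15, 12.22, 12.45 and 12.19, while its other probe sets averaged 7.41 and 7.50. Xbp1, which drives secretory capacity, averaged 12.18 ± 0.136, Prox1, needed for liver outgrowth, 11.02 ± 0.335, and Cebpa, which promotes mature hepatocyte functions, 10.75 ± 0.320. Zhx2, in mouse a repressor of Afp and H19 after birth, averaged 4.43 ± 0.326 and was below the bound on each array. The dimmest of those above it was the pioneer factor Foxa1 at 5.88 ± 0.243.

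Of the genes of glucose production that were measured, 15 of 15 lay above the bound on all 5 arrays, and 8 were in the top 10%. The gluconeogenic enzyme Fbp1 was 13.89, 14.01, 14.18, 13.97 and 13.91. Pck1, the hormone-controlled step of the same pathway, was 13.74, 13.78, 13.80, 13.98 and 13.50. The glucose transporter Slc2a2 averaged 12.61 ± 0.197 and the glycogen enzyme Ugp2 12.51 ± 0.233, while the mitochondrial Pck2 (8.16) and the alanine transaminase Gpt (7.94) were the dimmest. Disposal of nitrogen had 24 of 24 measured genes above the bound and 16 in the top 10%. Cps1, the entry enzyme of the urea cycle, averaged 13.69 ± 0.0893, Mat1a, which makes S-adenosylmethionine, 13.28 ± 0.173, the tyrosine enzyme Hpd 13.07 ± 0.200 and Arg1, the last enzyme of the cycle, 12.72 ± 0.148.

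Of the measured genes of fat burning, 21 of 21 lay above the bound and 14 in the top 10%. Fabp1, the fatty acid binding protein of liver, averaged 13.84 ± 0.126, the acyl-CoA synthetase Slc27a2 13.51 ± 0.119, the beta-oxidation enzyme Hadh 13.49 ± 0.0767 and the thiolase Acaa2 13.22 ± 0.201. Cpt1a, the gatekeeper of mitochondrial fat import, was 12.49, 12.30, 12.67, 12.76 and 12.53. The lipogenic list stood apart from this, with 12 of 16 above the bound (75%, near the 73.3% of all genes) and 4 in the top 10%. Its desaturase Fads1 (12.72) and the triglyceride enzyme Dgat2 (11.16) were bright, whereas Scd (4.87), Acacb (4.65), Pnpla3 (4.60) and Thrsp (4.31), which rise with carbohydrate feeding in adult liver, were below the bound on each array.

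Among genes of bile acid handling 18 of 20 passed the bound. The carrier Scp2 averaged 13.74 ± 0.0768, the uptake transporter Slc10a1 13.28 ± 0.119, the racemase Amacr 12.55 ± 0.242 and the conjugating enzyme Baat 12.35 ± 0.277. Cyp7a1, the rate-limiting enzyme of bile acid synthesis, was 8.59, 6.51, 8.04, 8.63 and 8.58, lowest on replicate 2. Cyp8b1, which makes cholic acid, was 11.23, 11.47, 10.23, 10.27 and 9.50, in another order. Cyp7b1 of the alternative pathway (3.37) and the sterol exporter Abcg8 (4.58) were below the bound on each array.

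In the insulin-like growth factor list 15 of 15 genes lay above the bound. Beside Igf2 stood the binding proteins Igfbp2 (13.77 ± 0.154) and Igfbp1, which carry these factors in blood. Igfbp1, which fasting raises, was 13.69, 13.46, 13.91, 14.17 and 13.39, the widest spread among the list's 4 brightest genes. The receptor Igf2r, which clears Igf2, averaged 10.50 ± 0.263, and the signalling receptor Igf1r 6.77 ± 0.335. Of the proliferation genes measured, 32 of 32 lay above the bound. Pcna averaged 11.78 ± 0.257, the replication helicase subunit Mcm7 10.75 ± 0.255 and the mitotic enzyme Ube2c 10.31 ± 0.408, while Tyms was the dimmest at 7.06. Mki67, a mark of cycling cells, was 10.13, 10.89, 11.19, 11.35 and 11.19, lowest on replicate 1, as were Pcna at 11.36 and Mcm7 at 10.32.

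Genes of red cell precursors were bright on each array. Of 42 measured erythroid genes, 38 were above the bound on all 5 arrays (90.5%, beside 73.3% of all genes) and 14 lay in the top 10%. The globin Hba-a3 was 12.48, 12.89, 13.29, 13.43 and 13.42, the antioxidant Prdx2 of red cells averaged 12.47 ± 0.454, and Tfrc, which brings in iron, was 11.68, 12.36, 12.70, 12.71 and 12.63. Ahsp, the chaperone of alpha-globin, was 10.69, 12.06, 12.77, 12.85 and 12.69. Alas2 was 9.80, 10.85, 11.42, 11.77 and 11.68. Slc4a1, the anion exchanger of the red cell membrane, was 8.99, 10.74, 11.13, 11.45 and 11.27.

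The regulators of the lineage were also lowest on replicate 1 and next lowest on replicate 2. Klf1, which turns on adult globin, was 7.74, 9.19, 10.41, 10.15 and 9.96, and Gata1, the master factor of red cells, was 5.69, 6.92, 7.72, 7.93 and 7.87. The mean of the whole list was 8.45, 9.10, 9.67, 9.76 and 9.70. Replicate 1 was thus lowest, replicate 2 next, and the other three lay close together. The 14 arrays of the DE-71 groups spanned 8.35 to 9.82 with a median of 9.13, so that the vehicle arrays covered most of the range of the series. Embryonic globins were dim: Hbz (3.76) and Hbe1 (4.76) were below the bound on each array, Hbg1 (4.96, 5.12, 5.96, 5.86 and 5.53) was above it on 3, and Hbe2 averaged 6.54.

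Granulocyte genes were next. In the neutrophil list 10 of 13 members were above the bound on all 5 arrays (76.9%, near the 73.3% of all genes). Of the 13, 5 lay in the top 10%. The defensin Defa5 was 12.64, 13.81, 13.77, 13.92 and 13.85, and the defensin Np4 was 12.47, 13.60, 13.53, 13.69 and 13.55. S100a9 averaged 13.43 ± 0.261 and its partner S100a8 12.87 ± 0.306. Camp, a granule peptide of neutrophil precursors, was 9.97, 11.08, 11.17, 11.27 and 11.18. Cxcr2 (4.03), a chemokine receptor, and Padi4 (4.66) were the only 2 of the 13 members below the bound on each array. The list's mean was 8.28 on replicate 1 and 8.98 to 9.09 on the others.

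Eosinophil genes separated replicate 1 from the rest by several log2 units. Prg2, the major basic protein of eosinophil granules, was 5.89, 10.76, 10.31, 10.40 and 11.03, and Epx, the eosinophil peroxidase, was 4.94, 9.29, 8.89, 8.94 and 9.49. The receptors Ccr3, Il5ra (3.40) and Fcer1a (3.23) were below the bound on each array. Hdc, which makes histamine in mast cells and basophils, took another order at 7.23, 5.97, 9.24, 9.78 and 6.54. The array number in the labels moved with Prg2: vehicle replicate 1 carries number 6, and the other vehicle arrays carry 9, 10, 15 and 19. Prg2 spanned 5.84 to 8.59 on the other 6 arrays numbered 1 to 8, against 8.83 to 11.03 on the 12 arrays numbered 9 to 20. Epx, a gene of the same cells, spanned 4.11 to 7.21 and 7.41 to 9.49 on the same arrays, without overlap. The cut between numbers 8 and 9 was set after the values were seen, so the separation is a description. The share of all genes that it separates was not computed. For the erythroid list the 2 sets overlapped, at 8.35 to 9.82 and 8.93 to 9.76. The labels do not say what the number stands for, 4 of the 7 arrays with low numbers are 50 mg/kg arrays, and the part of either was not tested.

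Stem and progenitor genes were dimmer, with 7 of 11 above the bound on all 5 arrays (63.6%, beside 73.3% of all genes). Cd48 of blood cells averaged 10.61 ± 0.127, the transcription factor Hlf 9.55 ± 0.302, Meis1 9.33 ± 0.470 and Lmo2 9.32 ± 0.361, but some of these are also made by hepatocytes or endothelium. Kit, the stem cell factor receptor, was 3.60, 3.64, 3.90, 3.46 and 3.53, below the bound on each array. Hoxa9, which is expressed in blood progenitors and in kidney, was 3.54, 8.76, 3.07, 2.88 and 2.75, and Mecom was 7.83, 10.29, 7.40, 7.21 and 7.51, both highest on replicate 2, where the kidney list was at 8.73. Megakaryocyte genes were above the bound in 11 of 13 cases (84.6%, beside 73.3% of all genes). Pf4, the platelet chemokine, was 9.37, 10.46, 10.66, 10.61 and 11.12, Itgb3 averaged 9.97 ± 0.303, Tubb1 9.06 ± 0.560 and Itga2b 8.21 ± 0.362.

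Lymphoid genes were scarce. In the T and NK cell list 3 of 15 members were above the bound on all 5 arrays, namely Nkg7 (7.98), Lck (6.47) and Zap70 (6.06), while Cd3e, Cd3d, Cd2 and Cd8a were below it on each array. Nkg7, a granule protein also found in other blood cells, was 6.53, 8.07, 8.43, 8.59 and 8.30, again lowest on replicate 1. In the B cell list 3 of 7 were above it, with Cd22 at 6.85, Blnk at 6.82 and Vpreb3, part of the precursor receptor, at 5.96.

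**Figure D3:**
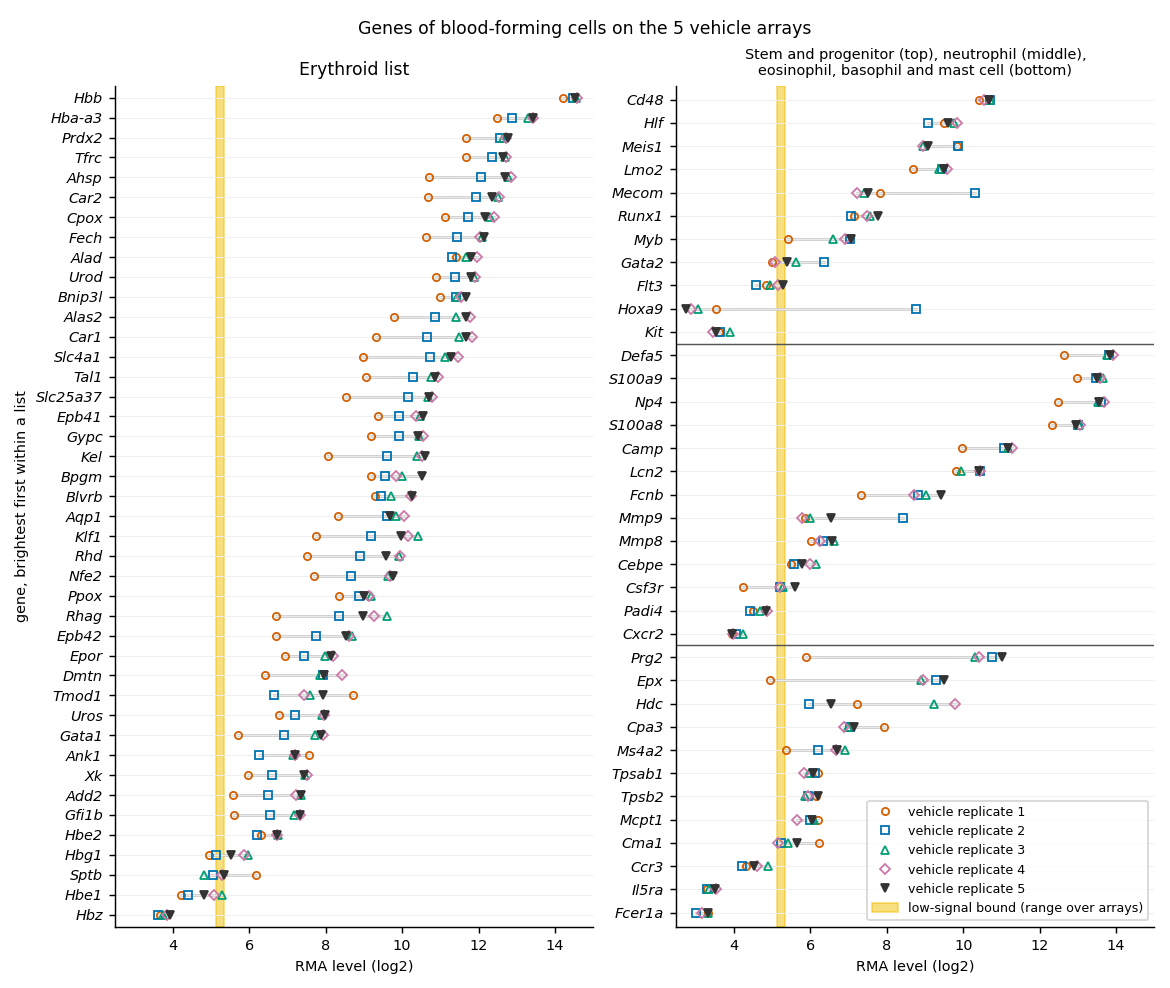
Level on each vehicle array (RMA, log2) of the 42 erythroid genes (left) and of the stem cell, neutrophil, and eosinophil, basophil and mast cell genes (right), with the range of the low-signal bound in yellow. Vehicle replicate 1 lies to the left in most erythroid and granulocyte genes, by the most in Prg2 and Epx.

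Macrophage, Kupffer cell and endothelial genes were well represented, and bile duct genes less so. The 18 measured macrophage and Kupffer cell genes passed the bound on each array. Lysozyme, Lyz2, was 12.67, 13.33, 13.35, 13.33 and 13.34, the iron exporter Slc40a1 averaged 11.61 ± 0.231, the complement gene C1qa 11.33 ± 0.235 and the heme oxygenase Hmox1 11.20 ± 0.209. Clec4f, the receptor that defines Kupffer cells in rodents, was 10.87, 10.59, 10.51, 11.33 and 11.30, and Cd163, which takes up hemoglobin, was 9.37, 8.97, 9.44, 9.70 and 9.92. The 15 measured endothelial genes passed too, led by Lyve1 (11.15 ± 0.253) and Stab2 (10.53 ± 0.400) of sinusoids, Kdr (10.18) and Fcgr2b (10.10). In the bile duct list 4 of 8 passed (50%, beside 73.3% of all genes), and none lay in the top 10%. Its surface protein Epcam was 8.04, 10.57, 8.12, 8.43 and 8.93, and Krt19 averaged 7.80 ± 0.460. The mean of the bile duct list was 7.43 on replicate 2 and 5.75 to 6.15 on the other arrays. On replicate 2 the kidney list was at 8.73, and its part was not tested.

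Stromal genes differed between arrays. In the stellate cell and fibroblast list 20 of 21 members passed the bound and 8 had an SD over 1. The stellate cell genes Reln (11.45 ± 0.250) and Colec11 (11.02 ± 0.219) hardly varied. Collagen genes did: Col3a1 was 13.83, 12.91, 12.39, 12.64 and 13.34, Col1a1 was 11.94, 10.45, 8.82, 9.62 and 11.06, and the matrix gene Postn was 11.22, 9.14, 8.06, 9.06 and 10.50. Replicates 1 and 5 were the highest in each of these, and they were also the 2 arrays with skeletal muscle transcripts, whose part was not tested. The list's mean was 10.16, 9.24, 8.44, 8.72 and 9.41, against 8.09 to 9.46 over the 14 DE-71 arrays.

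Which genes varied most was asked over all 14217 genes. An SD over 1 log2 unit across the 5 vehicle arrays was found in 393 genes (2.76%). The values choose these genes, so their spread is a description. The array farthest from the other four was replicate 2 in 177 of them, each time higher, and replicate 1 was farthest as the highest array in 172 and as the lowest in 16. Replicates 3, 4 and 5 were the farthest in few genes, with the largest count being 10 genes in which replicate 3 was lowest. Without replicate 2, 264 genes had an SD over 1, of which 233 were among the 393. With replicates 3, 4 and 5 alone it was 109 genes. In the 14 arrays that chose nothing, 177 of the 393 had a pooled SD over 1 within dose groups, beside 226 of all 14217 genes. Without replicate 2 of the 0.1 mg/kg group it was 95 of the 393, beside 144 of all genes. Of 205 measured genes on lists for other tissues 81 were among the 393, and of 131 genes on blood lists 12.

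Skeletal muscle transcripts led this list. Of 52 measured muscle genes, 44 had an SD over 1, and 8 were above the bound on all 5 arrays. Acta1 was 13.70, 5.94, 3.48, 4.40 and 12.53, and the myosin light chain Myl1 was 13.15, 6.10, 3.06, 4.56 and 11.82. The creatine kinase Ckm was 11.73, 5.13, 4.81, 5.04 and 9.55. Myh2, Cox8b, Myl11, Tnnt3, Myoz2, Ckmt2, Atp1b4, Mybpc1, Cox6a2, Casq1, Myh7, Myl2, Tnnc2, Myh8, Neb, Tnni2 and Ttn, the others of muscle among the 25 genes of largest SD, kept this order of replicates 1 and 5 over the rest. The list's mean was 9.63 on replicate 1, 7.48 on replicate 5 and 4.63 to 5.00 on the other three, and it reached 7.90 among the DE-71 arrays. Myh1, an adult fast myosin, departed from the list at 11.10, 11.36, 11.12, 11.06 and 11.01, at the same level on each array whatever the muscle signal. Among the vehicle arrays replicate 1 also had the highest smooth muscle list (7.75), skin list (6.99) and lung list (5.79). Sftpc, a surfactant protein of the lung, was 8.75, 3.73, 3.94, 3.73 and 3.82.

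The kidney list was raised on replicate 2 alone among the vehicle arrays. Slc12a1, the salt transporter of the loop of Henle, was 3.86, 11.94, 3.95, 3.62 and 3.81, and Slc34a1, the phosphate transporter of the proximal tubule, was 4.56, 12.09, 4.98, 4.85 and 4.88. Calb1, a calcium binding protein of the distal tubule, was 3.61, 11.66, 3.36, 3.40 and 3.44, and Hao2, an oxidase of the proximal tubule, was 3.85, 11.70, 3.88, 3.96 and 3.74. The kidney list was at 8.73 on replicate 2 and at 4.88 to 4.99 on the other four. Among the DE-71 arrays it was highest, at 8.70, on replicate 2 of the 0.1 mg/kg group, the array that nearly repeats this one, and the median of the 14 was 5.03. Miox (11.52) and Slc22a8 (10.08), which kidney shares with liver here, were above the bound on each array.

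Pancreas transcripts lay on replicates 2 and 4. Ctrb1, a chymotrypsinogen, was 4.59, 11.68, 4.48, 9.45 and 4.97. Prss1, a trypsinogen, was 3.55, 8.07, 3.66, 5.93 and 3.66, and the carboxypeptidase Cpa1 was 5.41, 7.95, 4.68, 6.95 and 4.68. Cela1, an elastase on the same list, was 11.13, 10.68, 11.06, 11.03 and 10.99, with no such pattern. The list's mean was 6.94 on replicate 2, 6.02 on replicate 4 and 4.70 to 4.77 on the others. The insulin gene Ins1 was 5.72, 7.00, 5.78, 6.46 and 5.95, highest on the same 2 arrays. On replicate 3 the muscle, kidney and pancreas lists were at 4.63, 4.99 and 4.71.

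**Figure D4:**
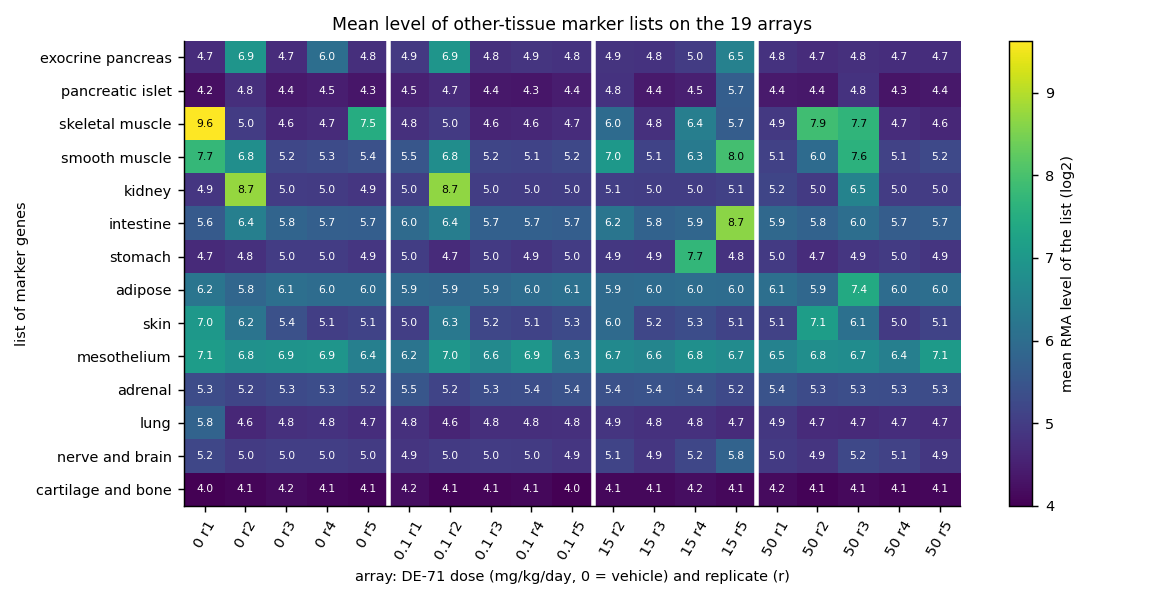
Mean level (RMA, log2) of 14 lists of genes of other tissues (down) on each of the 19 arrays (across, vehicle first, then rising dose; r is the replicate). Skeletal muscle at 9.63 on vehicle replicate 1 and kidney at 8.73 on vehicle replicate 2 stand out among the vehicle arrays, and DE-71 arrays carry signals of their own.

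The lists also held genes that stayed bright without their companions. Cyp17a1, a steroid hydroxylase on the adrenal list, was 13.08, 12.90, 12.94, 13.08 and 12.86. The other 8 adrenal genes were below the bound on each array, among them the steroid enzymes Cyp11a1 (4.57), Hsd3b1 (4.51) and Cyp11b1 (3.34) and the cholesterol carrier Star (4.76). Cidec (9.36 ± 0.359) and Fabp4 (9.23 ± 0.237) of fat stood against Adipoq, Plin1, Ucp1, Lep (3.98) and Elovl3 (2.80), which were below it on each array. None of the 7 cartilage and bone genes was above the bound on all 5 arrays.

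Some genes of liver itself differed between the vehicle arrays, and replicates 3 and 4 shared the high values of several. Fgf21, the fasting hormone of liver, was 8.50, 8.09, 10.27, 10.97 and 6.56. Trib3 and Chac1, which rise with amino acid shortage and stress of the endoplasmic reticulum, followed: Trib3 was 7.15, 7.50, 8.86, 10.31 and 7.20, and Chac1 was 8.01, 7.13, 8.29, 9.84 and 7.15. Tat, the glucocorticoid-induced tyrosine transaminase, was 9.17, 8.81, 10.98, 11.69 and 8.80, and the glyoxylate enzyme Agxt was 10.60, 10.77, 11.61, 11.76 and 10.88. These 5 genes had replicates 3 and 4 above the other three. Acot1, a thioesterase induced with fat oxidation, was instead low on replicate 5, at 9.77, 11.47, 11.31, 11.52 and 7.38. The same genes spread over the DE-71 arrays, Fgf21 between 6.96 and 10.69.

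Apart from these groups, 2 genes had a single vehicle array far from the others. Abhd3, a phospholipase, was 4.21, 5.82, 10.28, 3.57 and 3.61 on vehicle replicates 1 to 5, and its highest DE-71 array was at 6.16. RT1-T24-4, a class I histocompatibility gene, was 3.40 on replicate 3 and between 8.69 and 10.30 on the other four, and it was 6.99 to 9.94 on the DE-71 arrays. Both concern replicate 3. Abhd3 and RT1-T24-4, like Trib3, Chac1 and Acot1, were chosen after their values were seen.

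**Figure D5:**
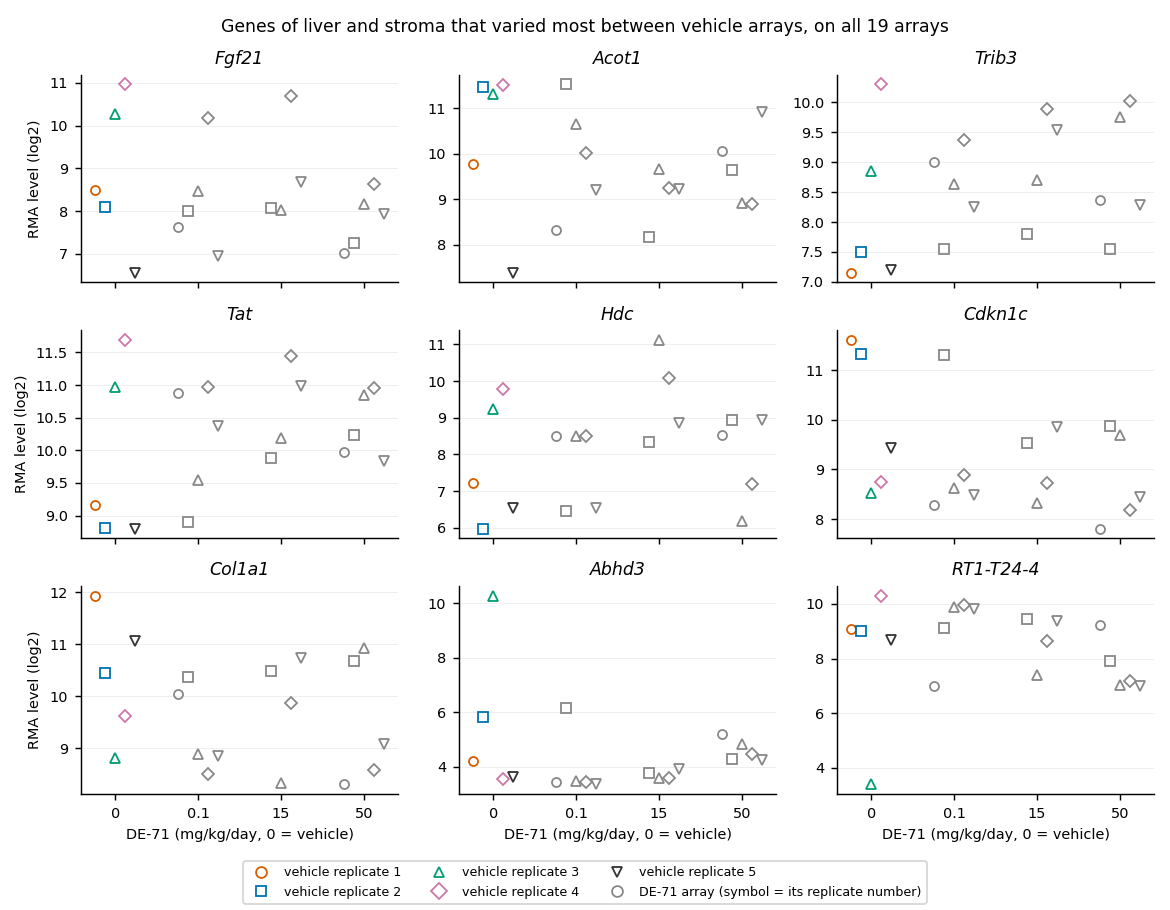
Level (RMA, log2) of 9 genes of large spread on all 19 arrays by DE-71 dose (0 is vehicle); colours mark the vehicle arrays and the symbol gives the replicate. Vehicle replicates 3 and 4 lie high for Fgf21, Trib3, Tat and Hdc, and replicate 3 stands alone for Abhd3 and RT1-T24-4.

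How far this baseline differed in the DE-71 groups was tested with limma over all 31042 probe sets, with Benjamini-Hochberg adjustment and a threshold of 0.05. The 213 genes set against it were the 100 brightest and the fetal, adult, plasma protein and erythroid lists. At 0.1 mg/kg none of the 213 passed, nor did any probe set of the whole table (0%, with 763 at an unadjusted p under 0.05). At 15 mg/kg none of the 213 passed either, and again none of the whole table (0%, with 3083 at an unadjusted p under 0.05). A count of 0 does not mean equal levels. Cyp1a2, which passed at 50 mg/kg, was 14.08, 11.32, 12.35 and 10.66 at 15 mg/kg, against 7.64 to 8.98 in vehicle. Cyp2c7 was 8.22, 7.19, 7.47 and 6.22 at 15 mg/kg, against 4.47 to 5.03 in vehicle. Of the genes that passed at 50 mg/kg, Igfbp2 and the plasma proteins Pros1 and Crp overlapped vehicle at 15 mg/kg. The others did not overlap it. Ugt2b1, for example, was 13.52 to 13.86 against 12.56 to 12.93, and Rnase4 was 13.56 to 13.69 against 13.73 to 14.03. Cyp2c11 came as near as 4.99 against 4.92, and Cyp3a9 stayed under the bound. These genes were chosen by their calls at 50 mg/kg. The share of all probe sets that separate in this way was not computed. Without vehicle replicate 2, and without both near-identical arrays, the count at either dose was also 0 of the 213. At 50 mg/kg 12 of the 213 passed, 10 higher and 2 lower, beside 499 of all probe sets (1.61%), 380 higher and 119 lower. Of the 12, 6 are P450, UGT or other enzymes of the adult list. The members' share was larger than that of all probe sets, but the lists were written with earlier results of these data known. Their probe sets were also the brightest over all arrays, dosed ones included. The larger share is therefore a description and not support for a response of the baseline. None of the 19 fetal and none of the 42 erythroid genes passed at this dose. Lists of these sizes would hold few calls or none at a share of 1.61%, so this does not set them apart.

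Rnase4, a secreted ribonuclease, was 13.24, 13.64, 13.25, 13.37 and 13.52 at 50 mg/kg, against 13.92, 13.73, 13.80, 13.89 and 14.03 in vehicle. Its change of -0.47 (SE 0.0893, adjusted p = 0.0131, limma) left the groups without overlap, and how many other probe sets separate so was not computed. The other gene that fell was Igfbp2, which was 12.92, 13.40, 13.23, 13.04 and 13.57 at 50 mg/kg, against 13.76, 13.63, 13.63, 13.99 and 13.86 in vehicle (a change of -0.54, adjusted p = 0.0207, limma). Cyp2c7, below the bound in vehicle, was 8.94, 8.55, 8.29, 8.69 and 6.97 at 50 mg/kg, against 4.95, 4.47, 4.90, 4.70 and 5.03 in vehicle (adjusted p = 0.00123, limma). Cyp2c11 was 6.77, 6.17, 6.24, 5.91 and 5.84 at 50 mg/kg, against 4.66, 4.90, 4.77, 4.92 and 4.89 in vehicle (adjusted p = 0.0367, limma). Against the mean bound of the vehicle arrays, 5.24, Cyp2c7 was at least 8.24-fold and Cyp2c11 at least 1.92-fold higher. Cyp3a9 passed too, but it averaged 4.31 at 50 mg/kg and 3.71 in vehicle, under the bound in both.

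Of the remaining 7, Ugt2b35 (0.50 on the log2 scale) and Ugt2b1 (1.04), which conjugate steroids and drugs, Akr1c14 (0.86), a steroid reductase, and Cyb5a (0.41), the electron donor of P450 enzymes, were higher. So were Cyp1a2 (5.75), the clotting cofactor Pros1 (0.59) and the acute phase protein Crp (1.57). Of the 5 arrays at 50 mg/kg 4 carry array numbers 1 to 8, against 1 of 5 vehicle arrays. With those numbers as a term in the fit 4 of the 12 still passed (Ugt2b35, Cyp2c7, Cyp1a2 and Ugt2b1), and their part was not tested beyond that. At 50 mg/kg 9 of the 213 genes passed without vehicle replicate 2, 11 without both near-identical arrays and 7 without 50 mg/kg replicate 1. The call of Cyp2c11 was lost without any single vehicle array and without any single 50 mg/kg array but replicate 5, and that of Cyb5a without any single array of either group but vehicle replicate 3. Igfbp2 lost its call without vehicle replicate 4 or 5 or 50 mg/kg replicate 1 or 4, Pros1 without vehicle replicate 1 or 2 or 50 mg/kg replicate 1 or 4, and Cyp3a9 without 50 mg/kg replicate 1. Replicate 1 of the 0.1 mg/kg group stood apart from its group, with Cyp1a2 at 13.80 against 7.63 to 8.83 on the other 4 arrays of that dose. Each called gene that was higher at 50 mg/kg was highest on this array within the 0.1 mg/kg group. Cyp2c7 was 7.06 on it against 4.17 to 5.00, and Ugt2b1 13.73 against 12.67 to 13.16. Of the genes that fell, Igfbp2 (13.75) lay within its group's range and Rnase4 (13.72) beside the next array (13.73). The array entered the spread shared by all fits.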

How the data were processed

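Liver RNA was read on 19 Affymetrix Rat230_2 arrays, 5 of them from vehicle-treated Wistar Han rats. The deposited values are log2 signals made by the authors with RMA (background correction, quantile normalization and probe summary), per the submitters' processing notes; no version of RMA is given in the sources used here. Quantile normalization gives all arrays nearly the same distribution, and RMA compresses differences at both ends of the scale. The number of arrays limits the precision.

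From these values 57 of 31099 probe sets were left out as controls. The platform annotation gave 20826 of the rest 1 symbol, 436 several and 9780 none, and 20758 of those with 1 matched a RefSeq gene. Where a gene had several probe sets, the one brightest on average in the series was taken. G6pc1, Mpo and Kdm5d were not analysed here. Levels, SDs and list means were computed in Python 3.11.15 with numpy 2.4.6 and pandas 2.3.3, and figures were drawn with matplotlib 3.10.9. The low-signal bound is the 95th percentile of 40 receptor genes on an array.

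Each dose was compared with vehicle by limma 3.58.1 in R 4.3.3 (lmFit and eBayes, two-sided, Benjamini-Hochberg over 31042 probe sets, threshold 0.05) with 1 mean per group and a spread shared by all arrays (15 residual and 2.78 prior degrees of freedom). The script was tested on simulated data. The submitters' comparison tool was not used.

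The rule for names took the 25 brightest genes, the 25 of largest SD among genes above the bound on some vehicle array, the 4 brightest and 2 dimmest of each list, the members that passed a comparison and a fixed set of markers; other genes were named after their values were seen. The members and lists were chosen with earlier results of these data known. Alternatives were other summaries of several probe sets, other bounds and filters, centring, array weights, a replicate block, and leaving out each array.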

Additional observations from a re-analysis of the deposited data

Results flagged for a closer look

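Dixon's test was applied to the 5 vehicle arrays for 36 list levels and for 55 genes, and it marked the highest or lowest array in 7 lists and 5 genes. Chance marks about 1 in 20 such groups. On vehicle replicate 2 the kidney list was far above the others at 8.73, the bile duct list at 7.43, the stem and progenitor list at 7.89 and the intestine list at 6.43, while the bile acid list was far below at 9.78 and its gene Cyp7a1 at 6.51. The same array nearly repeats replicate 2 of the 0.1 mg/kg group. On vehicle replicate 1 the lung list stood above the others at 5.79, and the neutrophil list stood below them at 8.28, as did Hbb at 14.22 and Prg2 at 5.89. Fgg was lowest on replicate 4 at 14.38 and Rps29 lowest on replicate 5 at 14.19, and their next arrays were at 14.46 and 14.24.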

How the results depend on the processing

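Of 179 counts and ranges recomputed under alternatives, which have no direction, 167 stayed close to the reported one and 12 moved. Close meant within a fixed ratio for a count, and within the SD of the list's vehicle means for a range. The moved ones came mostly from single arrays. The range of the list means over the vehicle arrays was 1.72 for stellate cells, 1.31 for erythroid, 0.846 for eosinophil and 0.817 for neutrophil genes, and without vehicle replicate 1 it was 0.968, 0.653, 0.346 and 0.111. The kidney range of 3.85 was 0.112 without vehicle replicate 2. Leaving out 1 array at a time gave 264 to 473 genes with an SD over 1, and vehicle replicates 3, 4 and 5 alone gave 109, an alternative chosen after seeing the data, as was leaving out both near-identical arrays. At 15 mg/kg the count of 0 among the 213 genes became 1 with a filter at the median signal, 1 with the mean of all probe sets, 3 with array weights and 2 with array numbers as a term, the last chosen after seeing the data, and the cause was not tested. At 50 mg/kg the count of 12 became 4 with array numbers as a term. It was 7 to 16 on leaving out 1 vehicle or 50 mg/kg array at a time, a range that does not cover leaving out arrays of other doses. The deviations of vehicle arrays and same-numbered DE-71 arrays correlated between -0.53 and 0.89 over 14 pairs, with 6 over 0.1 and the near-identical pair highest. Not every pair passed 0.1, so the numbers were not taken as a pairing, and a replicate block gave 11 calls at 50 mg/kg and 0 at the other doses. Of 226 recomputed changes of the 12 genes, 186 kept their call, 40 lost it and 0 changed direction. Probe sets below the bound and the brightest ones limit what can be read at both ends of the scale.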
